A study of Mus musculus with 2 samples.

Results

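Of the 2202 microRNA genes counted in mouse calf muscle, 8 were taken by name because their products are known from neurons, motor neurons or myelinating glia. They are Mir137, Mir138-1, Mir138-2, Mir128-1, Mir128-2, Mir218-1, Mir218-2 and Mir338, and each was found by its Ensembl identifier in the GENCODE vM21 annotation. The muscle was the gastrocnemius of male B6CASTF1/J mice, a first-generation hybrid strain, aged 14 days, sequenced as RNA of under 30 nt. The samples form 1 group of 2 biological replicates with no treatment, second tissue or second age, so the levels and the spread between the 2 libraries are what the design gives. Both replicates carry 1 donor identifier and a sample description that speaks of several males, and the labels do not say whether a replicate is a single animal or a pool. The spread given here may therefore be partly technical.

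A microRNA is cut from a hairpin transcript into a 5p and a 3p arm of about the length of a sequencing read, and the arm loaded into Argonaute pairs with messenger RNAs through its seed, bases 2 to 8. A calf muscle holds the axons and terminals of motor and sensory neurons and the Schwann cells that wrap them, while the cell bodies of those neurons lie in the spinal cord and the dorsal root ganglia. miR-137 and miR-138 are enriched in neurons and are known for limiting dendrite and spine growth, miR-128 is abundant in brain and also present in muscle, miR-218 is abundant in motor neurons, and miR-338 is known from oligodendrocytes and Schwann cells.

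The sequences decide which of these microRNAs can be counted at 1 locus, so the arms that bear on this are shown with the seed in capitals (RefSeq, GRCm38.p6, the assembly named mm10). All 8 genes were found in that table at the coordinates of the annotation. Mir137 and Mir338 are single loci, and their arms known as the main products are as follows.
miR-137-3p: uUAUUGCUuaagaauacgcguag
miR-338-3p: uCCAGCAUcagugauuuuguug
The other 6 genes form 3 pairs, and each pair encodes 1 arm that is the same at both loci.
miR-128-3p: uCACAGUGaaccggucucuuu
miR-138-5p: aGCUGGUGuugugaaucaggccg
miR-218-5p: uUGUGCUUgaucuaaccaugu
The opposite arm differs between the loci of each pair.
miR-128-1-5p: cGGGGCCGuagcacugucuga
miR-128-2-5p: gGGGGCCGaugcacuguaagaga
miR-138-1-3p: cGGCUACUucacaacaccaggg
miR-138-2-3p: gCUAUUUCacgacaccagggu
miR-218-1-3p: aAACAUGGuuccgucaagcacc
miR-218-2-3p: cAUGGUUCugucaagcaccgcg

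The deposited tables set reads that align to several loci aside and give them to no gene. They were 44.0% of the reads of replicate 1 and 52.1% of those of replicate 2. The longest stretch common to both hairpins was 23 bases for the Mir128 pair, 24 for the Mir138 pair and 22 for the Mir218 pair, and in each it contains the whole common arm. A read of that arm alone cannot be placed at 1 locus of its pair. The arms specific to a locus had at most 13 bases in a row in common with any other of the 2202 hairpins. The values of the 6 paired genes are thus levels of reads that could be placed, and they do not give the level of miR-128-3p, miR-138-5p or miR-218-5p. Both arms of Mir137 and of Mir338 occurred in no other hairpin, with at most 13 bases in a row in common, so this limit was not found for them. The tables do not separate the arms of a hairpin. Seeds did not tie the pairs to each other, and the one seed that recurred among the arms shown was that of miR-128-1-5p and miR-128-2-5p. Elsewhere in the table, miR-7002-3p has the seed of miR-218-5p and miR-496b that of miR-218-1-3p.

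All 8 genes had counts in both libraries, and their levels fell into 3 tiers. Levels are in CPM, counts on the gene's own strand scaled to counts-per-million over all microRNA genes, from 2743657 such counts in replicate 1 and 2211254 in replicate 2. A read covers a whole mature arm, so no scaling by gene length was applied. Mir128-1, Mir338 and Mir128-2 made up the top tier at over 100 CPM, Mir138-1, Mir137 and Mir138-2 lay between 10 and 100 CPM, and both Mir218 genes were under 10 CPM. The libraries did not overlap between tiers. The share of the 8 genes together was 0.130% in replicate 1 (0.126 to 0.135, 95% Wilson interval) and 0.148% in replicate 2 (0.143 to 0.154), a mean of 0.139% ± 0.0127 (SD, n = 2). Mir206, a microRNA made in skeletal muscle fibres, was 52.3 times their sum in replicate 1 and 45.8 times in replicate 2. The sum, and with it the share, leaves out reads of the arms that are common to a pair. With those reads the ratios to Mir206 could be lower. In whole tissue, fewer cells of a type and less RNA per cell cannot be told apart.

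**Figure D1:**
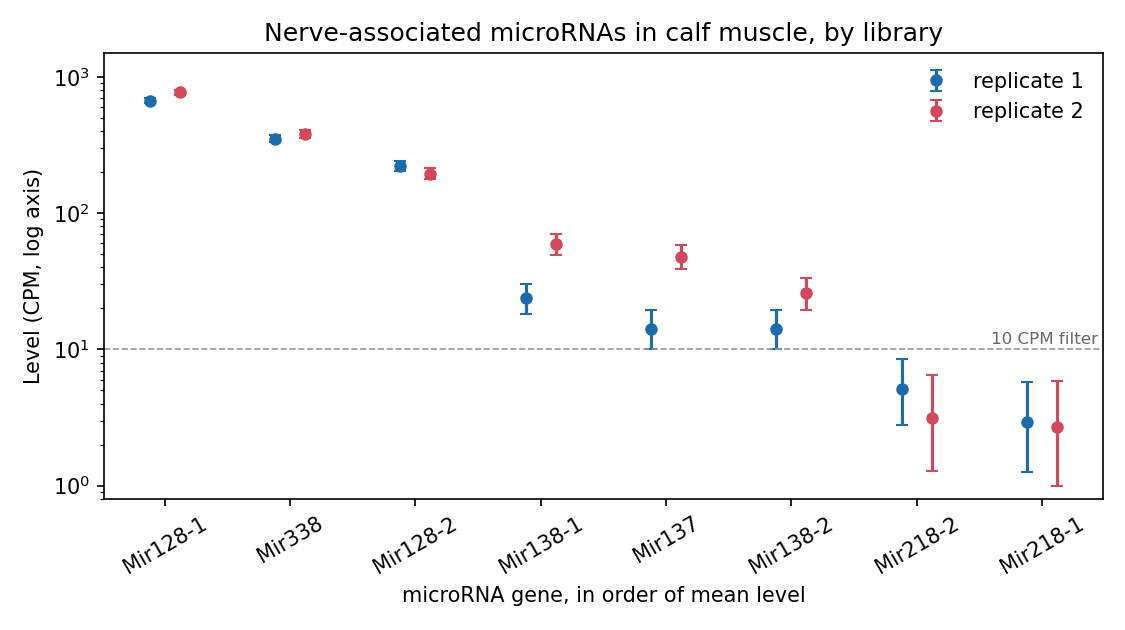
Level of each of the 8 microRNA genes (CPM, log axis) in replicate 1 and replicate 2, with 95% exact Poisson intervals of the count as bars and the genes in order of mean level. Mir128-1, Mir338 and Mir128-2 lie above 195 CPM in both libraries, the Mir138 genes and Mir137 lie between 14.2 and 59.2 CPM with replicate 2 higher, and both Mir218 genes lie under 10 CPM with wide intervals.

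Mir128-1 had the most placed reads of them (ENSMUSG00000065520.2, chromosome 1, 128202361 to 128202430, plus strand, in an intron of R3hdm1). It had 1839 counts in replicate 1 and 1703 in replicate 2, which is 670 and 770 CPM, a mean of 720 CPM ± 70.6 (SD, n = 2). Mir128-2, the second source of miR-128-3p, lies in an intron of Arpp21, a gene for an RNA-binding phosphoprotein of neurons (ENSMUSG00000065441.2, chromosome 9, 112118636 to 112118711, minus strand). It had 608 and 432 counts, or 222 and 195 CPM, a mean of 208 CPM ± 18.6 (SD, n = 2). The Mir128 pair carried 2447 of the 3579 counts of all 8 genes in replicate 1 and 2135 of 3282 in replicate 2. By mean level Mir128-1 ranked 87th and Mir128-2 140th of the 2202 genes.

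Mir338 lay between the Mir128 genes, at 115th. It is in an intron of Aatk, a kinase gene active in the nervous system, and on the minus strand like its host (ENSMUSG00000065600.1, chromosome 11, 120014765 to 120014862). It had 967 counts in replicate 1 and 840 in replicate 2, which is 352 and 380 CPM, a mean of 366 CPM ± 19.4 (SD, n = 2). Neither of its neighbours in the order overlapped it: Mir128-1 was 1.90 and 2.03 times Mir338, and Mir338 was 1.59 and 1.94 times Mir128-2, in replicates 1 and 2. The Mir128 values leave out reads of the common miR-128-3p arm alone, while Mir338 is a single locus. This order is therefore one of placed reads and does not rank miR-338 against miR-128.

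The value of Mir338 depends on the strand that is counted. Mir3065 is annotated on the opposite strand at 120014767 to 120014853, wholly within Mir338. When reads on either strand are counted, a read under both genes is ambiguous and is left out, and Mir338 then had 0 counts in each library. On its own strand Mir3065 had 3 and 2 counts, against the 967 and 840 of Mir338, so nearly all reads of this locus were on the Mir338 strand. Both genes lie within Aatk, and only Mir338 shares its strand. The other 7 genes had the same counts in both columns and 0 counts on the opposite strand.

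Mir138-1, Mir137 and Mir138-2 differed more between the libraries. Mir138-1 (ENSMUSG00000065414.1, chromosome 9, 122682876 to 122682974, plus strand, in an exon of the transcribed pseudogene Gm47135) had 65 counts in replicate 1 and 131 in replicate 2. That is 23.7 and 59.2 CPM, a mean of 41.5 CPM ± 25.1 (SD, n = 2). Mir137 (ENSMUSG00000065569.2, chromosome 3, 118433857 to 118433929, plus strand, in an exon of the noncoding transcript Gm26871) had 39 and 106 counts. That is 14.2 and 47.9 CPM, a mean of 31.1 CPM ± 23.8 (SD, n = 2). Mir138-2 (ENSMUSG00000065512.3, chromosome 8, 94324311 to 94324381, plus strand, in an exon of the long noncoding RNA C78859) had 39 and 57 counts. That is 14.2 and 25.8 CPM, a mean of 20.0 CPM ± 8.18 (SD, n = 2). The ranges of these 3 genes overlapped across the libraries. Within each library Mir138-1 was above Mir138-2, by more than counting error, as the shares of this pair show further on.

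The Mir218 genes, sources of the motor neuron microRNA miR-218, stood lowest. Mir218-2 lies in an intron of Slit3 and Mir218-1 in an intron of Slit2, genes for secreted axon guidance proteins (ENSMUSG00000065583.1, chromosome 11, 35616816 to 35616925, and ENSMUSG00000065603.1, chromosome 5, 48223942 to 48224051, both plus strand). Mir218-2 had 14 counts in replicate 1 (5.10 CPM, 95% exact Poisson interval 2.79 to 8.56) and 7 in replicate 2 (3.17 CPM, 1.27 to 6.52). Mir218-1 had 8 counts (2.92 CPM, 1.26 to 5.75) and 6 (2.71 CPM, 0.996 to 5.91). The intervals of both genes overlapped within and between libraries, so neither an order nor a difference was detectable at this depth. These values leave out every read of miR-218-5p itself that falls within the common 22 bases.

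The 2 libraries were then compared gene by gene over the 258 genes at 10 CPM or more in both, which 6 of the 8 genes reached. Each gene was given a two-sided exact binomial test on library sizes scaled by TMM, with Benjamini-Hochberg adjustment over all 258. A log2 ratio here is replicate 2 minus replicate 1 on log2(CPM + 1). The test compares these 2 libraries, not conditions, and covers counting error only. At a difference of at least 2-fold, 2 of the 6 genes were called, Mir137 and Mir138-1, both higher in replicate 2, against 1.16% of all genes tested (3 of 258). For Mir137 the log2 ratio was 1.64, with adjusted p = 1.14e-10 by the exact binomial test. For Mir138-1 it was 1.24, with adjusted p = 9.90e-09 by the same exact test. These took the first and the third place among the 258 log2 ratios. Both also passed edgeR's exact test, which takes in a spread between libraries estimated from the same 2 samples (adjusted p = 0.00167 and 0.0212), where 1.16% of genes were called at any size.

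Of the 80 tested genes under 100 CPM in at least 1 library, 3.75% differed 2-fold, which is 3 genes: Mir137, Mir138-1 and Mir1249. Among the 77 of these outside the 8 genes it was 1. None of the 178 at 100 CPM or more in both differed 2-fold by the exact binomial test, of which 123 had an unadjusted p under 0.05 (with edgeR's exact test, 0 were called and 5 had an unadjusted p under 0.05). With the 8 genes left out, the median absolute log2 ratio was 0.23 in the former set and 0.16 in the latter. Mir137 and Mir138-1 stood outside the range of most genes of their level, as the plot of log2 ratio against level shows.

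**Figure D2:**
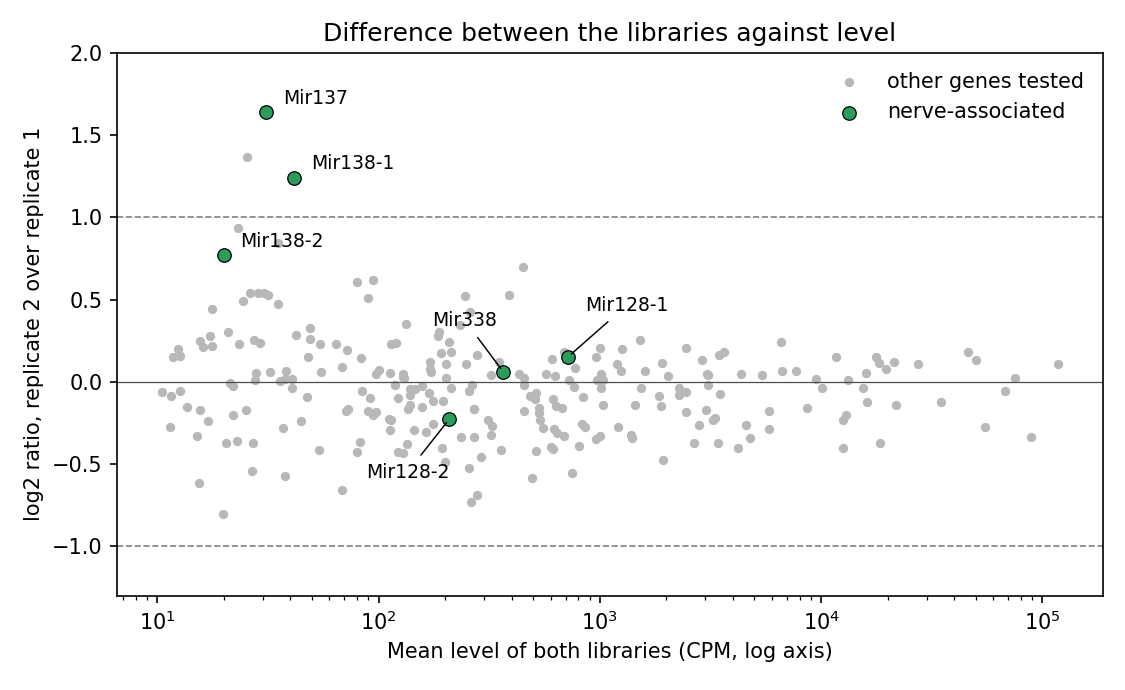
Log2 ratio of replicate 2 over replicate 1 against the mean level (CPM, log axis) for the 258 genes tested, with the 6 nerve-associated genes in green and dashed lines at a 2-fold difference. Mir137 (1.64) and Mir138-1 (1.24) lie above the upper line, Mir138-2 at 0.77 lies under it, and Mir128-1, Mir338 and Mir128-2 lie among the other genes.

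Without a fold threshold, 5 of the 6 genes were called, 4 higher and 1 lower in replicate 2, where 50.8% of all genes tested were called (19.0% higher and 31.8% lower). Library sizes from total counts (51.6% called) gave 67 genes higher and 66 lower, against 49 and 82 with TMM. Mir138-2 stood at 0.77 on the log2 scale (adjusted p = 0.0159, exact binomial test), the same direction as Mir138-1. Mir128-1 was higher at 0.15 (exact binomial test, adjusted p = 0.00405) and Mir128-2 lower at −0.23 (exact binomial test, adjusted p = 0.0241). Mir338 had a log2 ratio of 0.06 and was not called (exact binomial test, adjusted p = 0.489). With edgeR's exact test, the adjusted p was 0.816 for Mir138-2 and 0.995 for Mir128-1, Mir128-2 and Mir338. The call of Mir128-2 was also lost with library sizes from total counts (exact binomial test, adjusted p = 0.0837). The median log2 ratio was 0.46 over the 6 genes and −0.04 over all 258.

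The 3 pairs allow a comparison that no library scaling enters, the share of a pair's counts that falls on its first locus. Reads of the common arm alone are left out, so these are shares of placed reads and not of each locus's output. Mir128-1 held 75.2% of the Mir128 counts in replicate 1 (95% Clopper-Pearson interval 73.4 to 76.9) and 79.8% in replicate 2 (78.0 to 81.5). These intervals did not overlap, and the share differed between the libraries beyond counting error (two-sided Fisher's exact test, p = 0.000205, adjusted over the 3 pairs p = 0.000614), a test that again compares 2 libraries only. The share was 4.61 percentage points higher in replicate 2 while their summed level was 892 CPM in replicate 1 and 966 CPM in replicate 2. Mir138-1 held 62.5% of the Mir138 counts in replicate 1 (52.5 to 71.8) and 69.7% in replicate 2 (62.6 to 76.2), more than an even split in each, and the difference between the libraries did not pass (Fisher's exact test, adjusted p = 0.363). The summed Mir138 level was 37.9 CPM in replicate 1 and 85.0 CPM in replicate 2. Mir138-1 (23.7 and 59.2 CPM) and Mir138-2 (14.2 and 25.8 CPM) were each higher in replicate 2. For Mir138-2 the difference did not pass edgeR's exact test. Mir218-1 held 36.4% (17.2 to 59.3) and 46.2% (19.2 to 74.9), on 22 and 13 counts, and the share was not shown to differ (Fisher's exact test, adjusted p = 0.724).

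**Figure D3:**
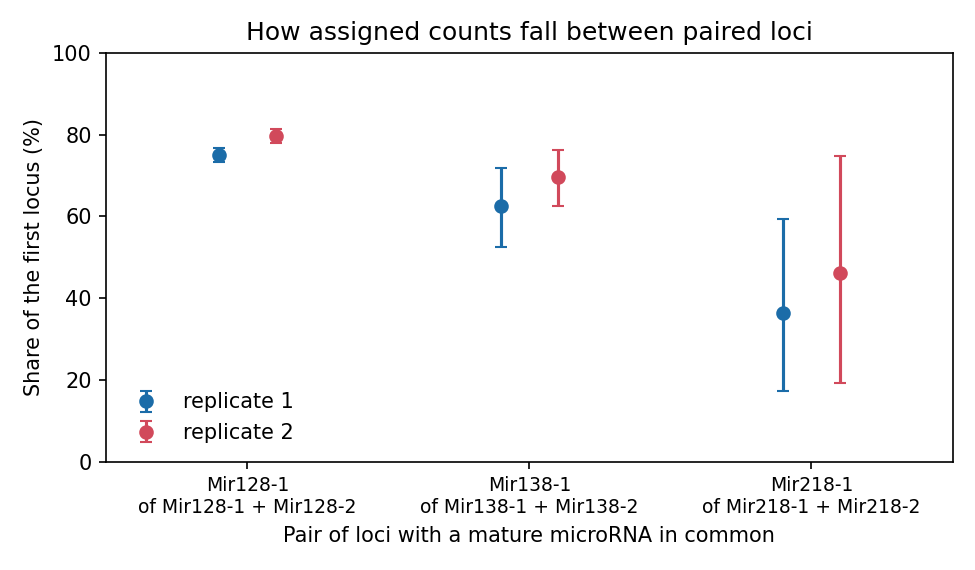
Share of a pair's counts (reads that could be placed) on its first locus (percent) in replicate 1 and replicate 2. The Mir128, Mir138 and Mir218 pairs are shown, with 95% Clopper-Pearson intervals as bars. The intervals of the libraries are apart for Mir128-1 (75.2% and 79.8%) and overlap for Mir138-1 and Mir218-1.

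A further 34 microRNA genes known from neurons or glia were read for comparison, and most had few counts. Of these, 6 reached 10 CPM in both libraries, 21 had counts but did not, and 7 had no count. Of the 21, 5 reached 10 CPM in replicate 2 alone. The highest were Mir433 at 3524 and 3465 CPM, Mir485 at 655 and 612 CPM, and Mir134 at 600 and 510 CPM, 3 genes of the imprinted Dlk1-Dio3 cluster that are not limited to neurons. Mir132, which neuronal activity induces through CREB, was at 258 and 298 CPM. Mir598 was at 24.4 and 46.1 CPM and Mir7-1 at 21.9 and 22.2 CPM. Arms were given in the RefSeq table for 29 of the 34. Of those 29, 11 have an arm that occurs whole at another locus, Mir7-1 among them. Reads of such an arm alone were set aside, so few counts at these genes do not show a low level of the microRNA.

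By the exact binomial test, 4 of these 6 genes were called, beside the background of 50.8%, and none differed 2-fold (with edgeR's exact test 0 were called, and 5 genes by the binomial and 1 by edgeR's had an unadjusted p under 0.05). Mir598 was higher in replicate 2 (log2 ratio 0.85, adjusted p = 0.00031, exact binomial test), and Mir433, Mir485 and Mir134 were lower (−0.07, −0.14 and −0.28). The median log2 ratio of the 6 was −0.05, against −0.04 for all genes tested. With library sizes from total counts, 2 were called higher (Mir132, Mir598) and 1 lower (Mir134).

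The genes that did not reach 10 CPM in both libraries included the microRNAs that define brain neurons. Mir124a-1, Mir124a-2 and Mir124a-3 had no count in either library, and of the 3 Mir9 genes, which act in neural progenitors and neurons, Mir9-3 had 1 count in replicate 2 and the others none. Where none was counted, up to 3 counts remain possible, equal to 1.09 CPM (replicate 1) or 1.36 CPM (replicate 2). Each of these genes has at least 26 bases in a row in common with another hairpin of its family, so reads within that stretch were not counted at any of them, and their values do not show that miR-124 or miR-9 was absent. Among glial genes, Mir219a-2, known from myelinating oligodendrocytes, had 16 and 27 counts and Mir219a-1 had 13 and 9. Both Mir219a loci encode the whole miR-219a-5p arm, within a common stretch of 22 bases, so its reads were set aside there too. Their counts are therefore not comparable with the 967 and 840 of Mir338, a single locus.

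Of the 21 genes with counts that missed 10 CPM in at least 1 library, 16 had more CPM in replicate 2 and 5 in replicate 1, where 54.4% of all 371 genes in that class had more in replicate 2. Their sum was 49.2 CPM in replicate 1 (135 counts) and 94.5 CPM in replicate 2 (209 counts), with the 7 genes at 0 adding nothing. Mir383 (5.83 and 15.8 CPM) and the sensory microRNA Mir183 (6.93 and 14.5 CPM) led them. Mir212, which shares a primary transcript with Mir132, was lower in replicate 2, at 16 counts in replicate 1 and 5 in replicate 2.

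**Figure D4:**
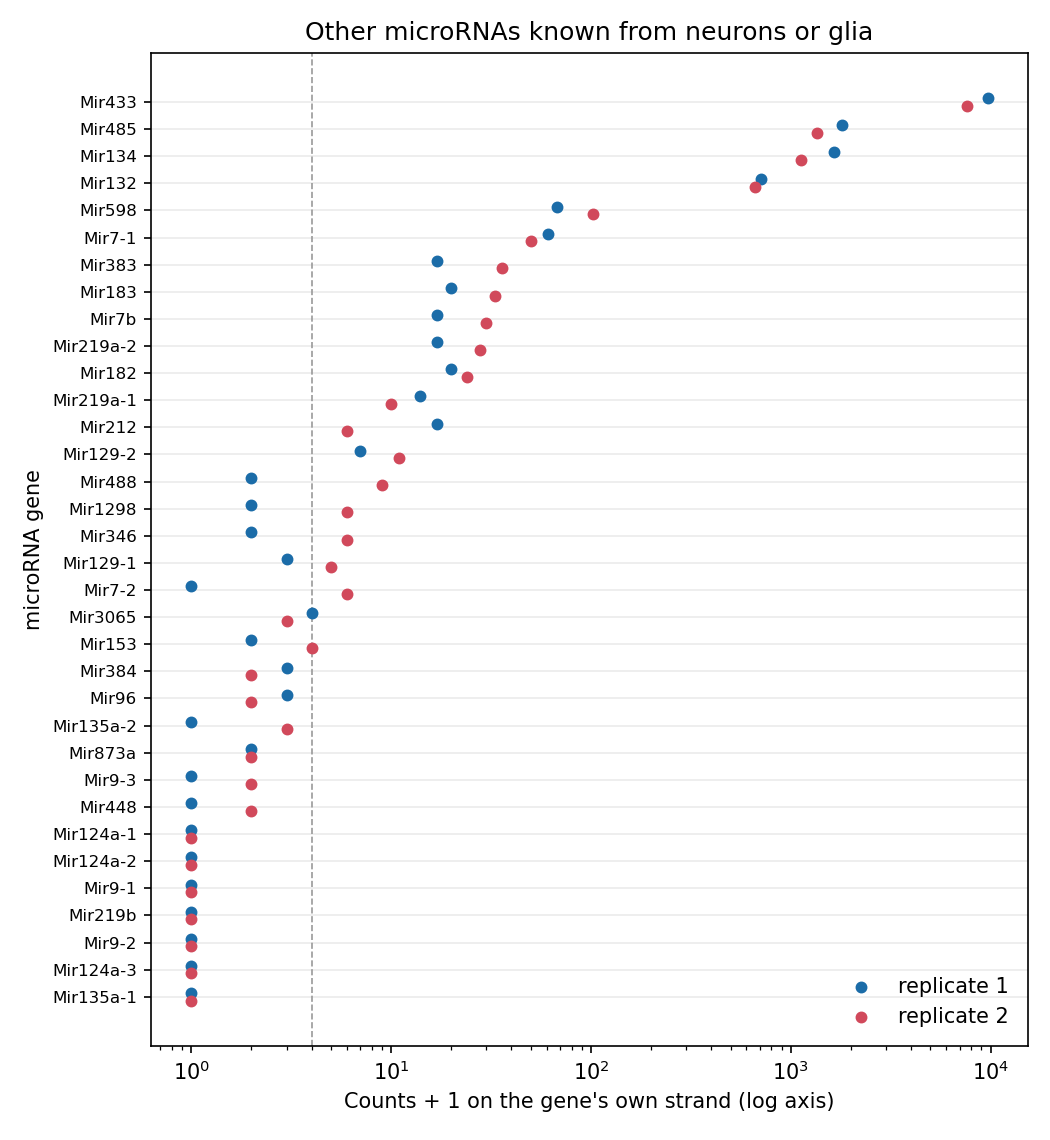
Counts + 1 on the gene's own strand (log axis) in replicate 1 and replicate 2 for the 34 other microRNA genes known from neurons or glia, unscaled for the greater depth of replicate 1, with a dashed line at 3 counts. Mir433, Mir485, Mir134 and Mir132 stand over 600 counts in both libraries, and Mir124a-1, Mir124a-2, Mir124a-3, Mir9-1, Mir9-2, Mir219b and Mir135a-1 are at 0.

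Marker lists of other cell types in the muscle were also summed in each library, and none was tested as a list. edgeR's exact test, which called 1.16% of all genes tested, called no gene on these lists. The erythroid list, Mir451a and Mir144, summed to 384 CPM in replicate 1 against 571 CPM in replicate 2 (log2 ratio 0.52), the same direction as Mir137 and the Mir138 genes. The connective tissue list (6314 and 5175 CPM, log2 ratio −0.33, led by Mir214) and the endothelial list (98088 and 80434 CPM, −0.33, led by Mir126a) went the opposite way. The smooth muscle list, led by Mir143, had a log2 ratio of −0.12, the leukocyte list, led by Mir146, one of −0.04, and the striated muscle list, led by Mir206, one of −0.05. Genes within a list could differ in direction. Among leukocyte genes, Mir146 (−0.23) and Mir223 (−0.04) were lower in replicate 2, and Mir142 (0.02), Mir150 (0.04) and Mir155 (0.12) higher. In the connective tissue list, Mir214 (−0.40), Mir140 (−0.14) and Mir199b (−0.57) were lower and Mir199a-2 (0.02) higher. All 9 striated muscle genes had counts, 69535 and 69214 CPM in sum, the markers of the labelled tissue. Mir206 alone was 68288 and 67909 CPM of that, so the log2 ratio of this list is nearly its own. The list holds paired loci, such as Mir1a-1 and Mir1a-2, that were not searched for common arms. Reads that align to several loci were set aside, so these are values of placed reads. They do not rank miR-206 against the other muscle microRNAs. The other genes of the list that were tested went both ways. Log2 ratios were 0.54 for Mir133b, 0.52 for Mir1a-2, 0.14 for Mir486, −0.05 for Mir208b, −0.24 for Mir133a-1 and −0.69 for Mir499. Of these, Mir1a-2, Mir486 and Mir499 were called at any size by the exact binomial test, where 50.8% of all genes tested were called. The list of Mir219a-1, Mir219a-2 and Mir338 was at 363 and 396 CPM (log2 ratio 0.08). Mir338, itself among the genes described here, was 352 and 380 CPM of that, so this list largely repeats its value. The part of these cell types, or of the amount of nerve in each sample, in the differences of Mir137 and the Mir138 genes was not tested.

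The gene nearest to each of the 6 genes in level was found by the Euclidean distance of log2(CPM + 1) over the 2 libraries, which describes level and direction in these samples only. Mir137 had Mir1249 as its nearest (13.5 and 37.5 CPM, distance 0.35), and Mir138-1 had Mir598 (distance 0.36). Mir138-2 had Mir7j (15.3 and 31.2 CPM, distance 0.28). Mir128-1 was nearest to Mir15b (711 and 741 CPM, distance 0.10), Mir128-2 to Mir666 (201 and 192 CPM, distance 0.14) and Mir338 to the leukocyte gene Mir155 (329 and 370 CPM, distance 0.11).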

How the data were processed

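The authors deposited whole-number read counts per microRNA gene, 1 table per library, on either strand, the own strand and the opposite strand, made on mm10 with annotation M21 per the labels and the deposited notes. The aligner and counter are not given in the sources used here. Lines that name no gene took 72.7% and 73.0% of reads and entered neither library sizes nor tests.

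CPM, sums and intervals were computed here from own-strand counts, and Mir338 is also given for either strand. Intervals and the limit of 3 counts cover counting error only, since PCR reads are not independent molecules. TMM sizes (edgeR 4.0.16, R 4.3.3) were estimated over every gene with a count. The binomial test was checked on counts simulated with counting error only, which cannot show how it behaves when libraries differ by more than that. Alternatives were total counts, DESeq2 1.42.0 size factors, no filter, 100 CPM, either strand and edgeR's exact test with 1 common dispersion. The 8 genes, the 34 others and the marker lists were chosen with earlier results of these data known. All 8 genes were named, of the others those at 10 CPM or defining a cell type, the leading gene of each marker list, and the nearest gene in level. Any other name was picked with its values in view.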

Additional observations from a re-analysis of the deposited data

How the results depend on the processing

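No paired analysis was possible because the labels give 1 group. Leaving out a replicate gives the other's value: 14.2 to 47.9 CPM for Mir137, 23.7 to 59.2 for Mir138-1, 14.2 to 25.8 for Mir138-2, 670 to 770 for Mir128-1, 195 to 222 for Mir128-2, 2.71 to 2.92 for Mir218-1, 3.17 to 5.10 for Mir218-2, 352 to 380 for Mir338 and 0.130% to 0.148% for the summed share; no difference between libraries can then be had. With reads that mapped to several loci added to the library size, all 8 levels were lower, at 10.9 CPM (Mir137), 14.6 (Mir138-1), 7.12 (Mir138-2), 260 (Mir128-1), 75.8 (Mir128-2), 1.02 (Mir218-1), 1.52 (Mir218-2) and 132 (Mir338). With either strand counted, the smaller library sizes gave 939 CPM for Mir128-1, 272 for Mir128-2 and 3.67 for Mir218-1, and Mir338 was at 0. Without the paired loci the summed share was 0.0397%.

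Mir137 and Mir138-1 stayed past the threshold in the same direction under every alternative that tested them, with log2 ratios of 1.63 to 1.69 and 1.23 to 1.29. At 100 CPM they were not tested. Of the 3 nerve-associated genes tested there, 0 were called 2-fold and 2 at any size. Over all 178 genes tested, the shares called were 0% and 64.0%. edgeR's exact test called 2 of the nerve-associated genes at any size, where 1.16% of all genes tested were called. Mir138-2 (0.77), Mir128-1 (0.15) and Mir128-2 (−0.23) were thus lost with that test. Mir128-2 also lost its call with total counts (−0.18), with no filter (−0.23) and with TMM over the tested genes (−0.20), an alternative chosen after seeing the data. Total counts moved the summed lists to −0.0067 (striated muscle), −0.286 (endothelium), −0.0718 (smooth muscle) and −0.287 (connective tissue), and the leukocyte list reversed to 0.0026 (from −0.04). The cause was not tested.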
